A study of Mus musculus with 6 samples.

Results

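The nuclear genes of the mitochondrial respiratory chain were described in lung tumour cells from mice that received a control dRNA or the mA1 dRNA, by which the series aimed at overexpression of Malat1. Genes were taken by symbol: the Ndufa, Ndufb, Ndufc, Ndufs and Ndufv families, Sdha to Sdhd, the Uqcr family, Cox genes numbered 4 to 8 with a letter A, B or C, and the Atp5 family. This gave 76 of 17842 genes in the exonic table, namely 35 of complex I, 4 of complex II, 8 of complex III, 12 of complex IV and 17 of complex V, and 72 of 13738 genes in the intronic table. The symbols leave out the subunits Cox4i1, Ndufab1 and Cyc1, and they take in Atp5s and Atp5sl, which are not subunits, and Cox7a2l, a factor of respiratory supercomplexes. Ndufa4 and its paralog Ndufa4l2 were counted with complex I by their names, although Ndufa4 is known as a subunit of complex IV.

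Cells were sorted from lung adenocarcinomas of p53-/-, Cas9+GFP+ mice 16 weeks after the start of the tumours, so both groups shared the loss of p53, Cas9 and GFP. Sorted cells were Dead-, CD45-, Epcam+ and GFP+, and 3 Con dRNA and 3 mA1 dRNA libraries of polyadenylated RNA were made, each from another animal. Exonic reads recovered from the values numbered 71093708 to 85248140 per library, and intronic reads 7200660 to 11422283. Values are normalised read counts, that is reads divided by 1 size factor per library. Malat1, genes of chromosomes X and Y (which carry further subunits) and the mitochondrially encoded subunits were not analysed here, so the rise in the targeted RNA was not checked. Each log2 fold change is the difference, mA1 minus control, of mean log2(value + 10), with its standard error (SE) from limma. Genes counted as higher or lower, or as having a higher or lower mean, were counted by the sign of this log2 fold change. The p-values measure the spread between these animals.

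The respiratory chain passes electrons from NADH through complex I and from succinate through complex II to ubiquinone, then through complex III and cytochrome c to complex IV, which reduces oxygen. Complexes I, III and IV pump protons across the inner mitochondrial membrane, and complex V, the ATP synthase, uses the gradient to make ATP. Most subunits are encoded in the nucleus and a few in mitochondrial DNA, and the factors NRF1, GABPA, YY1 and the estrogen-related receptors, with the coactivator Ppargc1a, are known regulators of the nuclear genes.

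The RefSeq promoter windows of GRCm38.p6, 250 bases before to 50 bases after each gene's start, were searched on both strands for the letters of 4 such motifs, and 64 of the 76 genes had a window. The NRF1 letters (GCGCA, any base, then GCGC) were in 16 windows (25.0%), against 4.78% of all 27025 windows. The YY1 letters AANATGGC were in 14 (21.9%, against 6.23%), the GABPA letters CCGGAAGT in 5 (7.81%, against 4.0%) and the estrogen-related receptor letters TCAAGGTCA in 2 (3.13%, against 0.407%). No match overlapped another motif, and 33 of 64 windows held at least 1. Windows of 4 genes are shown: Cox6a1 (chr5:115348909-115349208, minus strand), the most abundant member per kilobase, with 2 NRF1 matches; Ndufa6 (chr15:82354242-82354541, minus strand), the complex I gene with the lowest fold change, with an NRF1 match after the start; Atp5b (chr10:128083057-128083356, plus strand), the catalytic beta subunit, with a YY1 match; and Ndufa4 (chr6:11907401-11907700, minus strand), with none of the letters. Capitals mark the matches.
Cox6a1: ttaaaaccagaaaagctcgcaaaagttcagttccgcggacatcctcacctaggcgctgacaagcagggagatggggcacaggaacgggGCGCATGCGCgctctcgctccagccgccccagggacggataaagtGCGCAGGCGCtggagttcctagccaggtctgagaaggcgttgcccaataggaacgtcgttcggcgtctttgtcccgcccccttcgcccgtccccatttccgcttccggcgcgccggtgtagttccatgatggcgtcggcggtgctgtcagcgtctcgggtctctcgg
Ndufa6: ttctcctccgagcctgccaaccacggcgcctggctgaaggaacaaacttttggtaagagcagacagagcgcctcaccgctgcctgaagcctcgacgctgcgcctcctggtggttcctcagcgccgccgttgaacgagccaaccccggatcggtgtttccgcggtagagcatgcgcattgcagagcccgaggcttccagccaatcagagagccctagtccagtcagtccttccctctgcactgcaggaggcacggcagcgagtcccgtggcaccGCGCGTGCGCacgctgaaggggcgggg
Atp5b: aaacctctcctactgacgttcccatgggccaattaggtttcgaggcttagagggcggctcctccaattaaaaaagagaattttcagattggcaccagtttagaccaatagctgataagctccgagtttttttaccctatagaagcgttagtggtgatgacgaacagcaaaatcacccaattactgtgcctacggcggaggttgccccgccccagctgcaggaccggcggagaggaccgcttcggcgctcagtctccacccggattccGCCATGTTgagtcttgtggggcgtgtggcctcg
Ndufa4: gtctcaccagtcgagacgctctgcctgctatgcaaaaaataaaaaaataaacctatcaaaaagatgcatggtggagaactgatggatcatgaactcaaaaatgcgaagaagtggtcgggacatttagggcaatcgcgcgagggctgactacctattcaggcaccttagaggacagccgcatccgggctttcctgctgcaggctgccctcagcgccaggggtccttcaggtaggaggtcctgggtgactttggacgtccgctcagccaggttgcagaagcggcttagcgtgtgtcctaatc
The median exonic log2 fold change was 0.06 in genes with an NRF1 match and 0.07 in those without, and 0.09 and 0.06 for YY1. The letters are a description of these windows and do not show binding.

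Respiratory chain transcripts were abundant and took a like share of the exonic signal in all libraries. The summed share was 1.02%, 1.02% and 1.104% in control libraries 1, 2 and 3 and 1.07%, 1.13% and 1.07% in mA1 libraries 1, 2 and 3, so the groups overlapped. Levels between genes were compared per kilobase of the principal transcript, which 75 genes had, and the median was 10740 normalised counts per kb. Cox6a1, the widely expressed form of a small complex IV subunit, was highest at 37148 ± 1411 (SD over the 6 libraries), followed by Atp5b at 31640 ± 1549. Next came Uqcr11, a small complex III subunit, at 28675 ± 4061, Cox8a of complex IV at 28541 ± 2971 and Cox6b1 of complex IV at 27085 ± 1559. The last 3 lay within each other's spread, while Cox6a1 lay above Atp5b by more than either spread. Ndufa7 of complex I followed at 24982 ± 2885. Within complex II, Sdhb, the iron-sulphur subunit, had 11982 and Sdhd, a membrane anchor, 10825 per kb. The lowest member was Ndufa4l2, at 16.6 per kb. Per-kilobase levels depend on the transcript chosen: Ndufb2 and Atp5g1 have principal transcripts of 4371 and 4715 bases and stand low for their complexes.

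**Figure D1:**
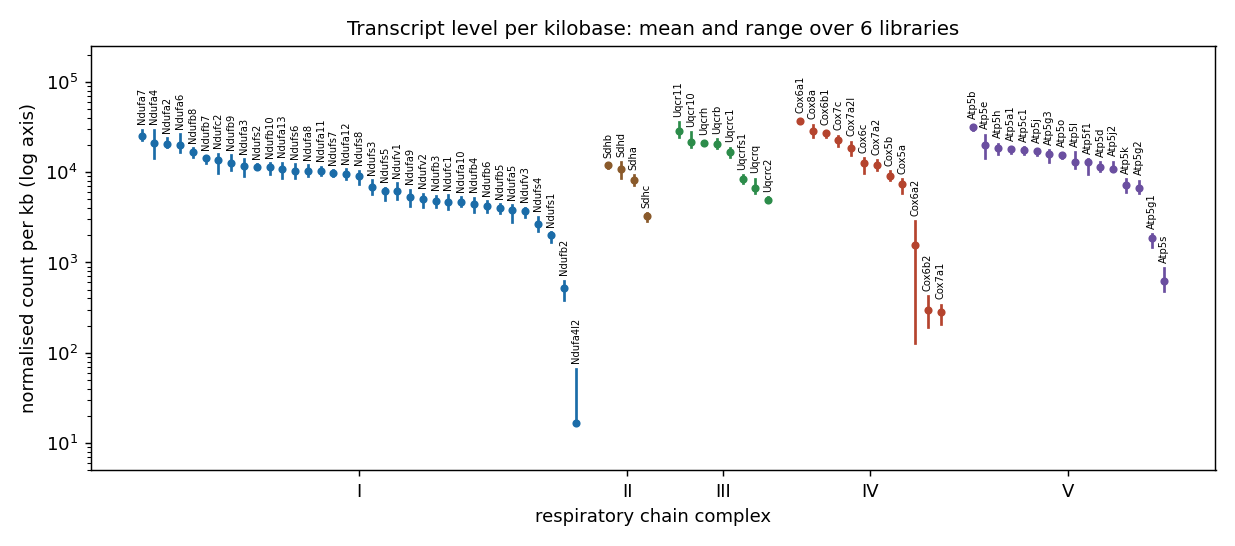
Normalised exonic count per kilobase of the principal transcript (log axis) for 75 genes, ordered within complexes I to V. Points are means and bars the range over the 6 libraries, leaving out libraries at 0 (which affects Ndufa4l2, at 0 in 3 libraries). Most genes lie within a narrow range, and Cox6a2 has the widest bar of the well-detected genes.

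No respiratory chain gene differed between the groups past an adjusted p of 0.05. Limma called 0 of 76, where 0.00602% of all 16606 genes tested were called, and the smallest adjusted p of a member was 0.321 (Benjamini-Hochberg). The edgeR quasi-likelihood test called 0 members (0.0% of all genes) and DESeq2 called 0 (2.75% of all genes). The authors' deposited table passes 0 members, against 2.91% of all genes, with a smallest adjusted p of 0.177. At an unadjusted p under 0.05 limma had 1 member of 76, Ndufa4, against 12.6% of all genes, or 5.15% counting those higher in mA1 as Ndufa4 was. Log2 fold changes were positive for 51 of 76 members (67.1%, median 0.06), against 53.8% of all genes (median 0.04). In edgeR and in DESeq2 50 of 76 were positive. The groups did not overlap for 12 of 76 members (15.8%), against 19.2% of all genes: 9 lay above (9.25% of all genes) and 3 below (9.92%).

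Precision was high for these genes. The 95% interval of the fold change stayed within 2-fold in either direction for 72 of 76 members and within 1.5-fold for 63. Among the 8123 genes with a mean of at least 1000 these counts were 6029 and 2955. The median SD within groups was 0.148 log2 units for the members, 0.384 for all genes and 0.236 for genes with a mean of at least 1000. The 4 members with an interval beyond 2-fold were Ndufa4l2, Cox7a1 and Cox6b2, which have low values, and Cox6a2, which was low in control library 1 alone.

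**Figure D2:**
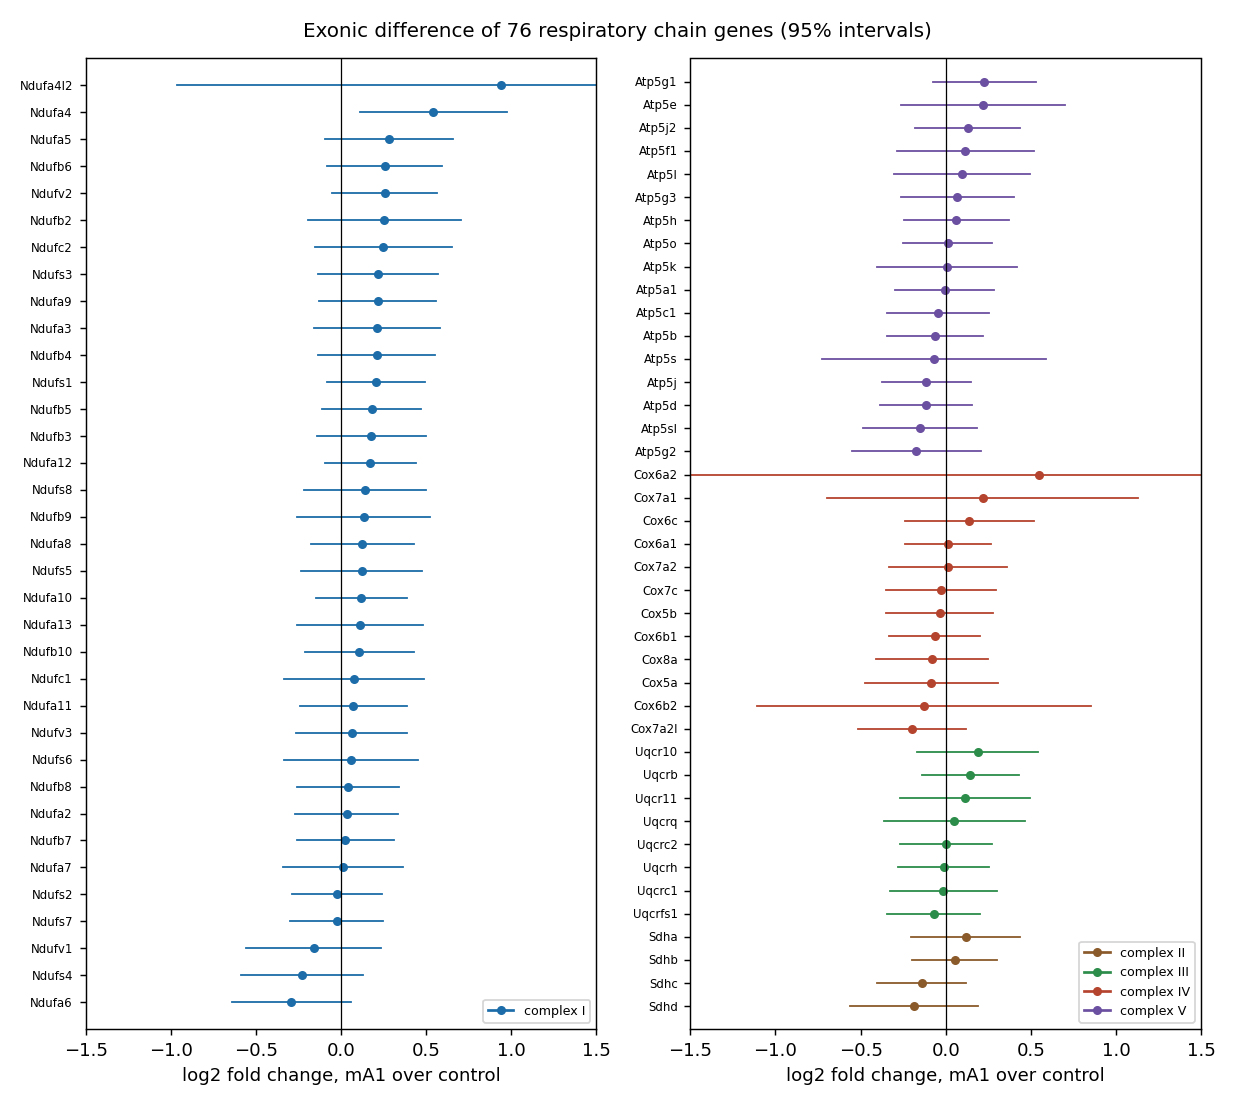
Exonic log2 fold change of mA1 over control for 76 genes, complex I on the left and complexes II to V on the right. Points are limma estimates and lines 95% intervals, cut at the axis limits for Ndufa4l2 and Cox6a2. Of 35 complex I points 30 lie above 0, and Ndufa4 is the 1 gene with an interval that leaves out 0.

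Complex I had the largest number of positive values. Of its 35 genes 30 had a positive log2 fold change (median over the 35 genes 0.13), while 21 of the 41 genes of complexes II to V had one (median 0.00). The 7 core subunits, which carry the flavin and iron-sulphur clusters, had positive values for 4 genes and a median of 0.14. Of 28 supernumerary genes, which surround the core, 26 had positive values (median 0.12). Single libraries weighed on this count: control library 1 was the lowest of the 6 for 25 of 35 complex I genes (71.4%, against 26.5% of all genes), and mA1 library 2 was the highest for 21 (60.0%, against 22.0%). The median deviation of complex I genes from their own means was −0.22, 0.01 and 0.02 log2 units in control libraries 1 to 3 and 0.00, 0.17 and 0.02 in mA1 libraries 1 to 3. Without control library 1, 23 of 35 genes had positive values with a median of 0.04, and over all 76 members the count was 39. Without mA1 library 2 the complex I count was 25 (median 0.07) and the count over all members 41. For complexes II to V the count was 16 of 41 when either of these libraries was left out. Leaving out any other single library gave 30 to 32 positive complex I values, with medians from 0.15 to 0.20. For complexes II to V it gave 21 to 24. Correction for the GC content of transcripts gave 32 of 35 in complex I (median 0.18) and 23 of 40 in complexes II to V. No test of the difference between complex I and the other complexes was made.

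Control library 1 also stood apart in markers of the sorted cells. Markers of alveolar type 2 cells, the surfactant-producing cells from which such tumours can arise, summed to 1.33%, 13.2% and 11.8% of exonic signal in control libraries 1 to 3 and to 12.3%, 18.6% and 11.9% in mA1 libraries 1 to 3. Of 10 such markers 10 had higher means in mA1 (median log2 fold change 1.197), and their lowest and highest sums fell in the libraries that were lowest and highest for most complex I genes. Their part in the complex I values was not tested. In RNA of sorted cells in bulk, fewer cells of a type and less RNA per cell cannot be told apart. The 7 markers of tumour epithelium, of which Sftpc is also an alveolar type 2 marker, were all measured, with Epcam at 39137 to 81074 counts. Of these, 5 had lower means in mA1 (list median −0.48), and those 5 were highest in control library 1. The keratin Krt8 had 512409, 389732 and 409178 counts in the controls and 251684, 228383 and 307229 in the mA1 group. Krt8 and Krt18 passed in the authors' deposited table (log2 values −0.74 and −0.75, adjusted p 0.0131 and 0.0232) and not in limma (adjusted p 0.279 and 0.294). Nkx2-1, a lung lineage factor, and Sftpc were the 2 that were lowest in control library 1, Nkx2-1 at 4796 counts against 17091 to 21027 in the other 5. The part of the epithelial markers in the respiratory chain values was not tested. Ptprc, the gene of CD45, had 80.8 to 265 counts. The 8 measured macrophage markers summed to at most 0.00564% and the 5 lymphocyte markers to at most 0.000428% in any library.

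**Figure D3:**
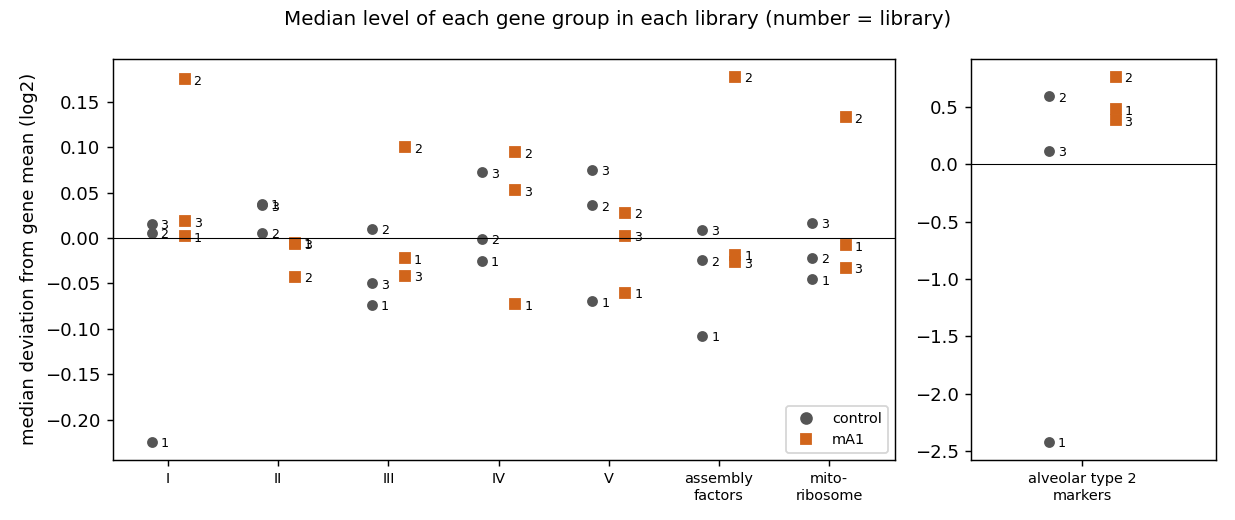
Median deviation (log2 units) of the genes of each complex, of assembly factors and of mitochondrial ribosomal proteins from their own means, by library; alveolar type 2 markers have their own axis. Circles are control and squares mA1 libraries, numbered 1 to 3. Control library 1 is lowest for complex I and for alveolar type 2 markers, and mA1 library 2 is highest for both.

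Ndufa4 (chr6:11900292-11907497, minus strand), whose promoter window is printed above, had 8744, 11601 and 10494 normalised counts in control libraries 1 to 3 and 14930, 18094 and 12176 in mA1 libraries 1 to 3. Every mA1 library lay above every control library. The log2 fold change was 0.54 (SE 0.18), a 1.46-fold difference with a 95% interval from 1.08 to 1.96 (limma, unadjusted p = 0.0209, adjusted p = 0.321). The authors' deposited table gives 0.55 with an adjusted p of 0.177. AA467197, the mouse form of the NDUFA4 paralog known as NMES1, was looked up after the values of Ndufa4 had been seen. It had 3060, 2648 and 3535 counts in the controls and 686, 284 and 1881 in the mA1 group. Its groups also did not overlap, in the opposite direction (log2 fold change −2.07, SE 0.61, limma adjusted p = 0.284), and the authors' deposited table gives −1.70 with an adjusted p of 0.0973. Ndufa4l2, a hypoxia-induced paralog, had 0, 14 and 0 recovered reads in control and 71, 0 and 15 in mA1 libraries, too few for a statement on direction.

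Among the other complex I genes the highest positive value was that of Ndufa5, a subunit of the peripheral arm. It had 2468, 3253 and 3275 counts in the controls and 3705, 3744 and 3420 in the mA1 group, with all mA1 libraries above all controls (log2 fold change 0.28, SE 0.16, limma adjusted p = 0.506). Ndufa6, an LYR-motif subunit of the peripheral arm (chr15:82350140-82354322, minus strand), had the lowest fold change. Its counts were 15439, 11236 and 12277 in the controls and 9921, 10933 and 10716 in the mA1 group. All mA1 libraries lay below all controls (log2 fold change −0.29, SE 0.15, limma adjusted p = 0.466). Ndufs4, a late-assembling subunit mutated in Leigh syndrome, had 5462, 4275 and 5043 in the controls and 4208, 4628 and 3762 in the mA1 group, which overlapped (−0.23). Ndufs1, the largest core subunit, had 5125, 4451 and 5249 in control against 5664, 5741 and 5643 in mA1 libraries, a small gap between groups with close mA1 values (log2 fold change 0.20, SE 0.12). The other complex I genes whose groups did not overlap were Ndufa12, Ndufb5, Ndufb6 and Ndufv2, each with mA1 above control. Ndufa7 (0.01), Ndufa11 (0.07) and Ndufa13 (0.11) had small values, and that of Ndufa7 changed sign when control library 1 was left out (−0.05).

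Complex II, which also works in the citric acid cycle, had 2 of 4 genes higher and a median of −0.04. Sdhc, a membrane anchor, had 11178, 10845 and 10492 counts in the controls and 10114, 9172 and 10209 in the mA1 group, so mA1 lay below control throughout (log2 fold change −0.14, SE 0.11, limma adjusted p = 0.622). Sdhd had −0.19 and the catalytic subunits Sdhb and Sdha 0.05 and 0.12, with overlapping groups. In complex III 5 of 8 genes were higher, with a median of 0.03. Uqcr10, a small subunit, had 8202, 8965 and 8959 in the controls and 8976, 12047 and 8997 in the mA1 group. Its groups did not overlap, but mA1 libraries 1 and 3 lay only just above the highest control, and the log2 fold change was 0.19 (SE 0.15, limma adjusted p = 0.633). Uqcrb had 0.14 and Uqcr11 0.12, while the core protein Uqcrc1 (−0.01) and the Rieske iron-sulphur protein Uqcrfs1 (−0.07) lay near 0.

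In complex IV all 12 genes had overlapping groups, and over all genes 19.2% had groups that did not overlap. Of the 12 genes 5 had a positive log2 fold change (4 in edgeR and in DESeq2), with a median of −0.03. Leaving out control library 1 or mA1 library 2 gave 3 of 12 (medians −0.03 and −0.07), and leaving out mA1 library 1 gave a median of 0.02. With Ndufa4 and Ndufa4l2 counted here, a choice made after the data were seen, its median was −0.01 and that of complex I 0.12. Cox7a2l had 23307, 19428 and 20469 counts in the controls and 18210, 16473 and 20487 in the mA1 group (log2 fold change −0.20, SE 0.13). Only the highest mA1 library reached the control range. The widely expressed isoforms took nearly all of the signal of their families: beside Cox6a1, the isoform Cox6a2 held 0.434%, 8.28% and 6.30% of the pair in the controls and 3.87%, 4.77% and 4.14% in the mA1 group, and Cox6b1 held 98.9% and 99.0% of its pair. The muscle isoform Cox6a2 (chr7:128205435-128206387, minus strand) had 87.9, 1957 and 1440 counts in the controls and 829, 1124 and 906 in the mA1 group. Control library 1 was far below the other 5, and the direction depended on the model, with a log2 fold change of 0.55 (SE 1.06) in limma, −0.29 in edgeR and −0.28 in DESeq2. Without control library 1 limma gave −0.82. Cox4i2, an isoform outside the symbol rule, was likewise low in that library, with 58.3, 457 and 683 counts in the controls and 635, 793 and 617 in the mA1 group. So was Myh7, a striated muscle myosin, at 1749 against 25552 and 21889 in the other controls and 20737, 22999 and 10873 in mA1 libraries. Of 7 measured striated muscle markers 5 were lowest and 2, Acta1 and Tnnt2, highest in control library 1. Their summed share was 0.0039% there (Myh7 1749 of 2922 counts) and 0.0158% to 0.0329% in the other 5 libraries, where most was Myh7. The part of these markers in the Cox6a2 values was not tested. Cox6a2 overlaps Itgad on the other strand, and the kit does not mark strand, so its count is uncertain. The muscle isoform Cox7a1 (0.22) and the testis isoform Cox6b2 (−0.13) had low counts and overlapping groups, and Cox8a (−0.08), Cox6b1 (−0.06), Cox7a2 (0.01) and Cox6a1 (0.02) lay near 0.

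Complex V had 9 of 17 genes higher and a median of 0.01, but leaving out control library 1 gave 5 (median −0.04), mA1 library 2 gave 7 (−0.03) and mA1 library 1 gave 11 (0.05). Of the 5 genes of its catalytic head, Atp5a1, Atp5b, Atp5c1 and Atp5d had values from −0.12 to −0.01 and Atp5e had 0.22. Atp5b had 60974, 62090 and 62647 counts in the controls and 57435, 56600 and 63990 in the mA1 group, which overlapped. The proton-carrying c subunit is made from 3 genes that encode the same mature protein. Atp5g1 had 7078, 8080 and 8960 in the controls and 9161, 9713 and 9221 in the mA1 group, all above the controls (log2 fold change 0.23, SE 0.13, limma adjusted p = 0.508). Atp5g2 had −0.17 and Atp5g3 0.07. As a share of the 3 genes, Atp5g1 held 34.2%, 31.8% and 32.9% in control and 36.6%, 37.6% and 35.6% in mA1 libraries. Atp5g2 held 20.6%, 23.1% and 20.7% in control and 17.2%, 19.3% and 17.7% in mA1 libraries. Both shares had groups that did not overlap, in opposite directions, and the exact two-sided permutation test gave p = 0.1 for each, the smallest that 3 against 3 libraries allow. The 3 shares add up to the whole in each library, and that of Atp5g3 averaged 45.6% in control and 45.3% in mA1 libraries. The results for Atp5g1 and Atp5g2 are therefore not independent. In all, 12 isoform shares were computed. Atp5g2 has 2 near-identical genes among the annotated transcripts, so its reads may be split. Atp5sl, which is not a subunit, had 2006, 1973 and 1993 in the controls and 1846, 1746 and 1786 in the mA1 group, all below the controls (−0.15).

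Counts of 10 members were uncertain because another gene is at least 95% identical over at least 50% of the transcript, with Atp5l having the most such copies (9). In addition, 27 members overlap a gene of the opposite strand, among them Atp5j with Gabpa, Ndufs1 with Eef1b2 and Ndufb5 with Mrpl47. Ndufa4 and Ndufa6 had neither.

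**Figure D4:**
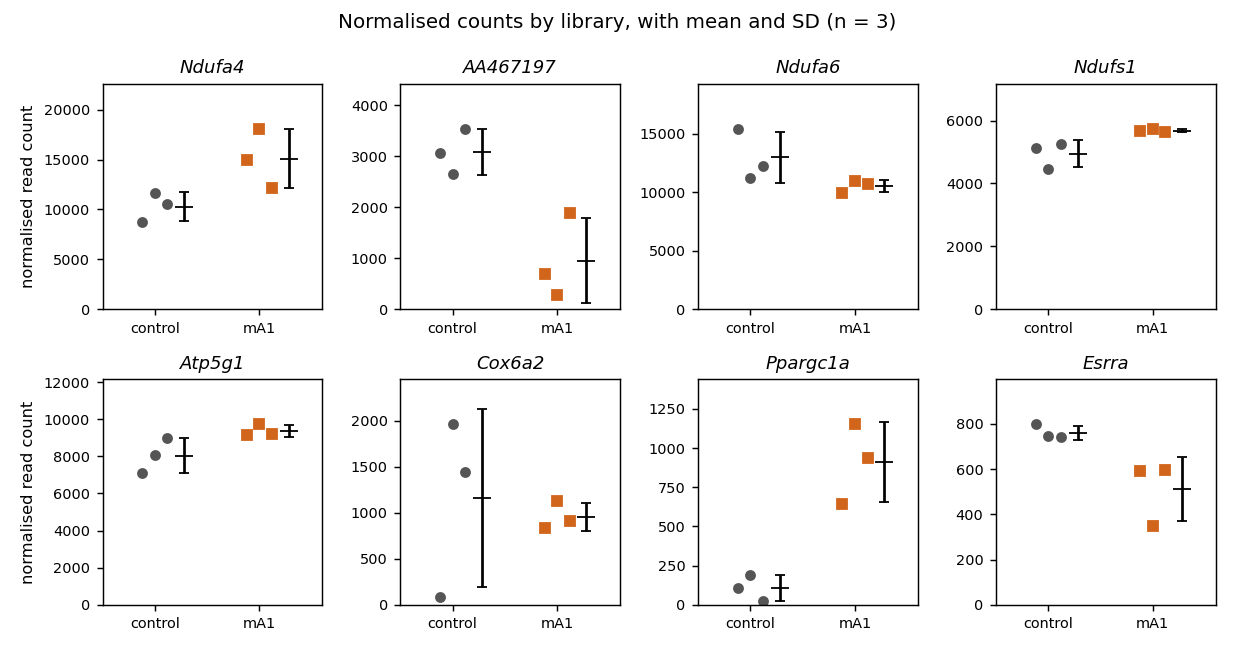
Normalised exonic counts in each library for 8 genes (linear axes from 0), control as circles and mA1 as squares, with mean and SD of 3 libraries. Groups do not overlap for Ndufa4, AA467197, Ndufa6, Ndufs1, Atp5g1, Ppargc1a and Esrra, while Cox6a2 has 1 control library near 0.

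Other mitochondrial genes were read from lists chosen for these processes. Of 46 assembly factors, which build the complexes, 30 had positive log2 fold changes (median 0.09). Positive values were also found for 49 of 76 mitochondrial ribosomal proteins (0.07), 13 of 18 citric acid cycle and pyruvate entry genes (0.13) and 19 of 33 import and cristae genes (0.06). As for complex I, mA1 library 2 was often the highest, for 23 of 46 assembly factors and for 39 of 76 mitochondrial ribosomal proteins (51.3%), against 22.0% of all genes. The median deviations of mA1 libraries 1 and 3 were −0.02 and −0.03 for assembly factors and −0.01 and −0.03 for mitochondrial ribosomal proteins. Limma and the authors' deposited table called 0 genes in each of these lists, where 0.00602% and 2.91% of all genes were called. Of 18 glycolysis genes 4 had positive log2 fold changes (median −0.14), and of 80 cytoplasmic ribosomal proteins 15 (median −0.10). Again 0 were called, against the same shares of all genes. Single libraries stood apart here too: mA1 library 2 was lowest for 14 of 18 glycolysis genes (77.8%, against 21.1% of all genes), with median deviations of −0.02, −0.38 and 0.20 in mA1 libraries 1 to 3. Control library 1 was highest for 48 of 80 cytoplasmic ribosomal proteins (60.0%, against 24.4% of all genes).

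Of 27 regulators of mitochondrial biogenesis 12 had positive log2 fold changes, with a median of −0.05 over the list. Control library 1 was highest for 13 of the 27 (48.1%, against 24.4% of all genes). The lowest value fell in mA1 library 2 for 10 (37.0%, against 21.1%). Ppargc1a had 105, 192 and 22.5 counts in the controls and 645, 1151 and 938 in the mA1 group, with every mA1 library above every control. It passed in the authors' deposited table, at a log2 value of 3.10 (adjusted p = 0.0015), but not in limma (3.30, SE 0.68, adjusted p = 0.237). Esrra, a partner of Ppargc1a, had 797, 746 and 742 in the controls and 593, 348 and 595 in the mA1 group (log2 fold change −0.61, SE 0.29, limma adjusted p = 0.442), with mA1 below control throughout. Nrf1 (−0.02), Gabpa (−0.16) and the mitochondrial transcription factor Tfam (0.01) had overlapping groups.

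Intronic reads, which come largely from unspliced RNA, were compared in the same way. They made up a median of 2.27% of a member's reads, against 12.4% over all genes, and the median SE was 0.51 log2 units in introns against 0.14 in exons. Of the 71 members tested 38 had higher intronic values in mA1 (median 0.02, against 0.03 for all genes). Limma called 0 (0.0% of 12791 genes), and 3 members had an unadjusted p under 0.05 (10.5% of all genes). The groups did not overlap for 7 members (16.8% of all genes). By complex the median was 0.08 for I, 0.07 for II, 0.20 for III, −0.06 for IV and −0.28 for V, where 5 of 16 genes had higher values. Without control library 1 the intronic median over all members was −0.23 and that of complex I −0.28.

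Single genes had wide intronic spread. Ndufa5 had 81.4, 187 and 159 intronic counts in the controls and 78.8, 32.9 and 13.8 in the mA1 group, below control throughout (log2 fold change −1.69, SE 0.67, limma adjusted p = 0.437), while its exonic value was 0.28. Uqcrc2, a core protein of complex III, had 215, 268 and 134 in the controls and 343, 527 and 319 in the mA1 group, above control throughout (0.93, SE 0.40, limma adjusted p = 0.463), with an exonic value of 0.00. Ndufb6 had 21.3, 1.29 and 0 in the controls and 29.6, 18.2 and 208 in the mA1 group (2.04), which rests on mA1 library 3. Uqcrc2 overlaps Pdzd9 and Ndufb6 overlaps Smim27 on the other strand, so the counts of Uqcrc2 and Ndufb6 are uncertain. The difference between exonic and intronic log2 fold changes had a median of 0.10 over members (−0.04 over all genes). Without mA1 library 3 that median was 0.0078, without control library 3 0.0369, without mA1 library 1 0.0385 and without control library 2 0.0556. Limma called 0 of 71 (0.0% of 11656 genes). An unadjusted p under 0.05 was found for 3 members (7.28% of all genes). The genes with the smallest p were Ndufa5 (1.97, limma adjusted p = 0.653), Ndufa4 (1.21, limma adjusted p = 0.671) and Uqcrc2 (−0.93, limma adjusted p = 0.686).

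**Figure D5:**
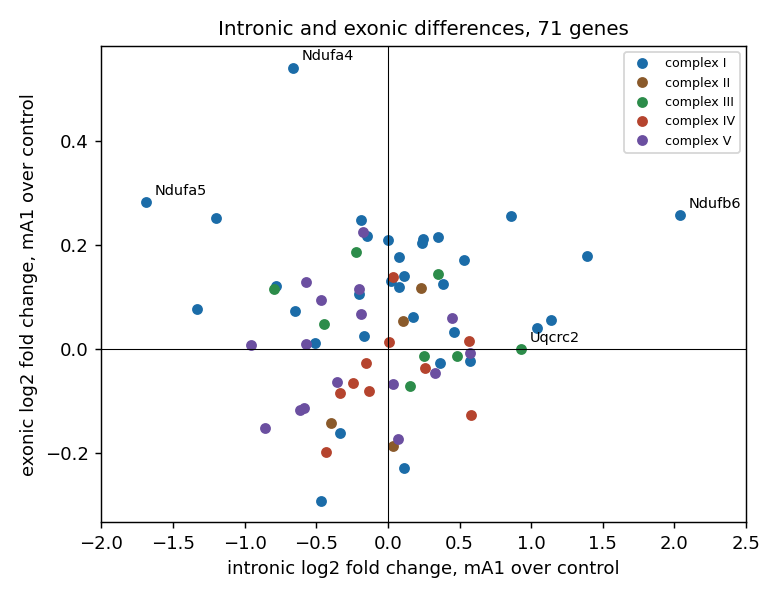
Intronic (x axis) and exonic (y axis) log2 fold change of mA1 over control for 71 genes, coloured by complex. Intronic values spread from about −1.69 to 2.04 and exonic ones from −0.29 to 0.54 among these genes, with Ndufa4, Ndufa5, Ndufb6 and Uqcrc2 named.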

How the data were processed

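Members and lists were chosen with earlier results of these data known. Polyadenylated RNA was measured in 6 libraries. The submitters' processing notes name the build mm10 and the tools DESeq2, HTSeq 1.99.2 and TopHat2 2.1.1, with no roles; annotation and strand setting are not given in the sources used here. The deposited tables hold normalised signal, reads divided by 1 size factor per library. Dividing by 1 step in each library made 100% of values whole (tolerance 0.05), which gave back whole reads; the exonic steps of mA1 libraries 2 and 3 lie near 1 (1.01), so recovery is less certain there. The authors' own log2 fold changes, test score and p-values were deposited beside them. Limma 3.58.1 (R 4.3.3) with a mean-variance trend was fitted to log2(value + 10) for genes with at least 10 in at least 3 libraries, with Benjamini-Hochberg adjustment over all genes at 0.05. A run on simulated data checked the code only: all genes had the same relative spread and no library stood apart, unlike these data. EdgeR 4.0.16, DESeq2 1.42.0 and voom ran on recovered reads. Named were called members, the 2 highest and 2 lowest fold changes (mean at least 50) and 2 most abundant genes per complex, tissue isoforms, set regulators and the 3 smallest intronic p-values. Transcripts came from GENCODE M21 and near-identical genes from BLAST 2.17.0. A further allele that all mice of both groups shared is not reported here.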

Additional observations from a re-analysis of the deposited data

How the results depend on the processing

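No member passed an adjusted p of 0.05 under any alternative (smallest 0.180 in exons, 0.379 in introns). The exonic calls over all genes went from 1 to 0 with the replicate block, with GC correction and the block together and with edgeR, to 478 with DESeq2, and to between 0 and 1 when a library was left out; intronic calls ranged from 0 to 1. Same-numbered libraries gave no sign of pairing (correlations of deviations 0.0187, 0.0659 and −0.1021, against −0.178 to 0.173 for differently numbered ones). With 3 libraries per group this cannot exclude pairing. With GC correction, with or without the block, the complex II median was −0.0867, the medians of complex III (0.0253 to −0.0243) and complex IV (−0.0318 to 0.0173) changed sign, and signs changed for Uqcrc1 (0.22), Uqcrb (−0.0423), Cox6b2 (0.0390), Cox8a (0.18), Atp5g2 (0.0322), Cox7a2 (−0.0045) and Uqcrc2 (−0.15; −0.0231 with length correction). Cox6a2 was −0.29 with edgeR and −0.28 with DESeq2. Leaving out a library gave medians from −0.0709 to −0.0121 for complex II, 0.0034 to 0.0983 for complex III, −0.0686 to 0.0197 for complex IV, −0.0444 to 0.0529 for complex V and, in introns, −0.23 to 0.0585 for all members, −0.28 to 0.19 for complex I, −0.0189 to 0.33 for complex III and −0.17 to 0.0633 for complex IV. The exon minus intron median ranged from 0.0078 to 0.11. In exons the complex I median was 0.18 with GC correction and ranged from 0.04 to 0.20 when a library was left out. Leaving out a library gave values from −0.11 to 0.10 for Ndufa7, −0.0901 to 0.0704 for Uqcrc1, −0.0203 to 0.21 for Uqcr11, −0.43 to 0.11 for Cox6b2, −0.82 to 1.34 for Cox6a2, −0.0216 to 0.0405 for Cox6a1, −0.16 to 0.0166 for Cox8a, −0.0526 to 0.12 for Cox7a2, −0.0126 to 0.20 for Ndufa13 and −0.0469 to 0.0420 for Uqcrc2. The cause was not tested. Of 509 alternatives for named genes 474 kept their sign. The 3 animals per group limit the precision.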

Other observations

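Glycolysis genes not described above include Hk1, the housekeeping hexokinase, with 13225, 11753 and 12142 normalised counts in control libraries 1 to 3 and 9543, 6379 and 9286 in mA1 libraries 1 to 3, all below the controls (log2 fold change −0.58, limma adjusted p = 0.290). Hk1 was the only 1 of 18 glycolysis genes whose groups did not overlap (5.56%, against 19.2% of all genes). Pkm, a pyruvate kinase gene, had 327876, 225299 and 203258 in the controls and 171067, 136358 and 222719 in the mA1 group, which overlapped. Of 46 assembly factors the groups did not overlap for 11 (23.9%, against 19.2% of all genes). Of these, 8 had mA1 above control (9.25% of all genes) and 3 below (9.92%). The complex I assembly factors Ndufaf5 (log2 fold change 1.02), Ndufaf6 (0.69) and Ndufaf7 (0.50) and the assembly factor Ecsit (0.49) each had all mA1 libraries above all controls, with limma adjusted p from 0.311 to 0.379. These genes were named after their values were seen. Ndufaf5 had 253, 344 and 449 counts in the controls and 603, 948 and 598 in the mA1 group.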
